A study of Mus musculus with 8 samples.

Results

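Mouse genes named Zfp followed by a number encode proteins with zinc fingers, most of them of the kind that reads DNA, and the genes numbered 600 to 999 are a late-named and largely uncharacterised stretch of that nomenclature. Their signal was followed here in round spermatids, haploid germ cells at the start of their reshaping into sperm, purified from mice with different alleles of Piwil1, the gene of MIWI. The members were chosen by name: every gene of the platform annotation whose symbol is Zfp and a number from 600 to 999, with or without a trailing letter, on a transcript cluster listed with that symbol alone. This gave 159 clusters of 148 genes, out of 19938 genes with such a cluster. Mean intensity over the 8 arrays chose the cluster of each gene where it had several, and the rule used no other measured value. The range of names itself was set with earlier results of these data known, so the members are not a set picked blind to the data. At the edge of the rule, Zfp599 lay just outside with a mean log2 intensity of 5.71 and Zfp600 just inside with 4.06. No member was left out for a low signal.

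Many mouse proteins of this family join an array of zinc fingers, which binds a DNA sequence, to a KRAB domain, which recruits the co-repressor TRIM28 and through it the histone methyltransferase SETDB1 and heterochromatin proteins. Members of the KRAB class are best known for silencing retrotransposons and endogenous retroviruses in the early embryo and the germ line. MIWI acts on the same kind of target by another route. It is a PIWI protein, made in male germ cells during and after meiosis, that is guided by piRNAs and can cut transposon RNA.

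The mice were adults of strain C57BL/6, and total RNA came from spermatids pooled from fractions of a bovine serum albumin gradient. There were 4 genotypes with 2 arrays each: MIWI -/-, with null alleles alone, MIWI -/KI, with the knock-in over the null allele, MIWI +/KI, with the knock-in over a wild-type allele, and MIWI +/-, with the null over a wild-type allele. Every genotype thus had at least 1 mutated allele, and mice with only wild-type alleles were not among the samples. What the knock-in allele changes is not in the labels; the published study describes a mutation of the catalytic site. The arrays of a genotype are called biological replicates 1 and 2, without saying whether mice were pooled, so the p-values rest on the spread between preparations, which may be partly technical. A gradient enriches round spermatids and does not isolate them. In RNA of such a preparation a lower share of a cell type and less RNA per cell cannot be told apart.

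The deposited values are intensities on a linear scale, with array medians between 66.6 and 71.8, and log2 intensities were tested with limma over all 35512 clusters, calling an adjusted p under 0.05. Having 2 arrays per genotype limits how precise any value is. Piwil1 itself lay at log2 intensities of 7.61 and 7.24 in MIWI -/-, 9.39 and 9.44 in MIWI -/KI, 9.41 and 9.55 in MIWI +/KI, and 8.60 and 8.53 in MIWI +/-. Markers of round spermatids were bright in all arrays, with medians over 12 genes between 9.82 and 11.2. Spermatocyte markers were bright as well, with medians over 18 genes between 8.88 and 9.47. MIWI -/KI replicate 2 stood apart from the other arrays. It was the highest of the 8 for 72 of the 148 members and the lowest for 25. Of all genes it was the highest array for 21.7% and the lowest for 34.9%. Results that rest on it are also given without it.

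Promoters of 129 of the 148 members, 250 bases before to 50 after a gene's start, were taken from RefSeq on assembly GRCm38.p6. Shown are those of Zfp804b, the called gene with the smallest adjusted p, of the neighbours Zfp719 and Zfp819, which rose together, and of Zfp618, which fell. They lie at chr5:7344329-7344628 on the minus strand, chr7:43579336-43579635 on the plus strand, chr7:43606919-43607218 on the plus strand and chr4:62965317-62965616 on the plus strand. Each is written 5′ to 3′ along the gene, and capitals mark a match on either strand to TGACG, the letters of a CRE half-site, or AACTG, the core letters that MYB factors bind.
Zfp804b: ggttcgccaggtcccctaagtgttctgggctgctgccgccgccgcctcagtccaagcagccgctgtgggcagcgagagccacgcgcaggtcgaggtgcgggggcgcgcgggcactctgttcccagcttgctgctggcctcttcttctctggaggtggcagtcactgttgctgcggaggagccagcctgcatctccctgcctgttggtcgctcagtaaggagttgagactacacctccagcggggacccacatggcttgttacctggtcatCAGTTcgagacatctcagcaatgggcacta
Zfp719: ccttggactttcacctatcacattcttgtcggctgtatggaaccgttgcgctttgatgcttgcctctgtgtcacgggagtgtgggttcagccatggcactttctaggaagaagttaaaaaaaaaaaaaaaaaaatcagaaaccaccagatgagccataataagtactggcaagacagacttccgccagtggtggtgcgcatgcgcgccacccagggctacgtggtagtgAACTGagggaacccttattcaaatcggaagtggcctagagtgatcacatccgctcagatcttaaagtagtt
Zfp819: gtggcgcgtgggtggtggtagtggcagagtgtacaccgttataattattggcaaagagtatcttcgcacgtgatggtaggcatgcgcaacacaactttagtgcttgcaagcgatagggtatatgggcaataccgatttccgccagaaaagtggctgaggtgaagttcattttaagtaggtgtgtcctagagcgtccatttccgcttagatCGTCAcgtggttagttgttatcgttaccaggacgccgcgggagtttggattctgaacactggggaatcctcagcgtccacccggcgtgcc
Zfp618: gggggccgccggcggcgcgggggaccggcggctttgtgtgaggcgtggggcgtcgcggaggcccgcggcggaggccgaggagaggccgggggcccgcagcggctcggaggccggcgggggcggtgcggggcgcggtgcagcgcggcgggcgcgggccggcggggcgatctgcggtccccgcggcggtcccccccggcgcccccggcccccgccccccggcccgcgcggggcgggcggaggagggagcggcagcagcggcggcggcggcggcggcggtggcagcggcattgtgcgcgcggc

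The Zfp719 and Zfp804b promoters hold 1 match to AACTG each, the Zfp819 promoter holds 1 match to TGACG, and the Zfp618 promoter holds neither word. Zfp618 has the promoter richest in G and C among the called members, 88% with 59 CpG dinucleotides, while Zfp719 has 47.7% and 11. Over all 158 member promoters, the TGACG word stood in 51, or 32.3%, against 28.3% of the promoters of Zfp genes numbered under 600 and 20.8% of 32851 promoters of the table. Among the 16 promoters of the 13 members that rose without a wild-type allele and have one, it stood in 8, which include both overlapping promoters of Zfp637. TGACG contains a CpG, and the median number of CpG was 12.5 in the members' promoters and 18.5 in those of the members that rose. It was 16 in those of Zfp genes numbered under 600 and 7 in all promoters. The AACTG word stood in 48.1% of the members' promoters, 39.6% of those of the lower-numbered Zfp genes and 44.8% of all. The CRE palindrome, which contains the half-site, stood in 2.53%, 5.19% and 1.79% of the same sets. These are counts of letters and do not show binding.

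Signals of the 148 genes spanned mean log2 intensities from 3.21 to 10.4, with a median of 6.31, and 67 of them lay above the median over all genes. The brightest clusters were those of Zfp654, Zfp646, Zfp706, Zfp644, Zfp991 and Zfp653, with means of 10.35, 9.91, 9.71, 9.54, 9.44 and 9.23. The dimmest were those of Zfp931, Zfp811 and Zfp709, at 3.21, 3.81 and 3.92. Brightness depends on the probes as well as on the transcript, so these values do not rank transcript levels. The SD between arrays of a genotype, pooled over genotypes, had a median of 0.172 on the log2 scale over the members and 0.160 over all genes. It was largest for Zfp935 (0.664), Zfp640 (0.629), Zfp758 (0.602) and Zfp825 (0.577). In all 4 of these genes MIWI -/KI replicate 2 lay above MIWI -/KI replicate 1 by over 1 on the log2 scale, for example at 7.72 and 6.10 for Zfp758.

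The comparison without against with a wild-type allele averages MIWI -/- minus MIWI +/- and MIWI -/KI minus MIWI +/KI, and asks which transcripts differ when no wild-type MIWI is made. Of the 148 genes, 15 rose and 3 fell, or 12.2%, against 8.26% of all genes called in either direction, 4.33% higher and 3.93% lower. Among the Zfp genes numbered under 600, 10.9% rose and 0% fell. The genes that rose were Zfp729b, Zfp804b, Zfp612, Zfp953, Zfp719, Zfp939, Zfp653, Zfp626, Zfp644, Zfp637, Zfp639, Zfp819, Zfp655, Zfp941 and Zfp607b, and those that fell were Zfp706, Zfp618 and Zfp735. The median log2 fold change was 0.08 over the members and -0.01 over all genes, and it was above 0 for 102 members (68.9%) and for 47.8% of all genes. The 4 arrays without a wild-type allele lay above the 4 with one, with no overlap, for 23 members (15.5%), and below them for 3, against 9.38% and 6.53% of all genes. Of the 18 called genes, Zfp626 and Zfp735 were those whose arrays overlapped. The count of 18 was 36 without MIWI -/KI replicate 1 and 6 when MIWI -/- replicate 1 or any 1 of the MIWI +/KI and MIWI +/- arrays was left out, and it was 18 without MIWI -/KI replicate 2. The share of all genes called was 16.5% without MIWI -/KI replicate 1, 3.28% to 5.86% in the settings with 6 members, and 8.58% without MIWI -/KI replicate 2. Zfp729b, Zfp804b, Zfp612, Zfp719 and Zfp653 kept their call in all alternatives run, and each of the other called genes lost its call in at least 1. Zfp612, Zfp719 and Zfp653 were run in 17 alternatives. Zfp729b and Zfp804b were run in 16, since the alternative without dim clusters left them out.

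**Figure D1:**
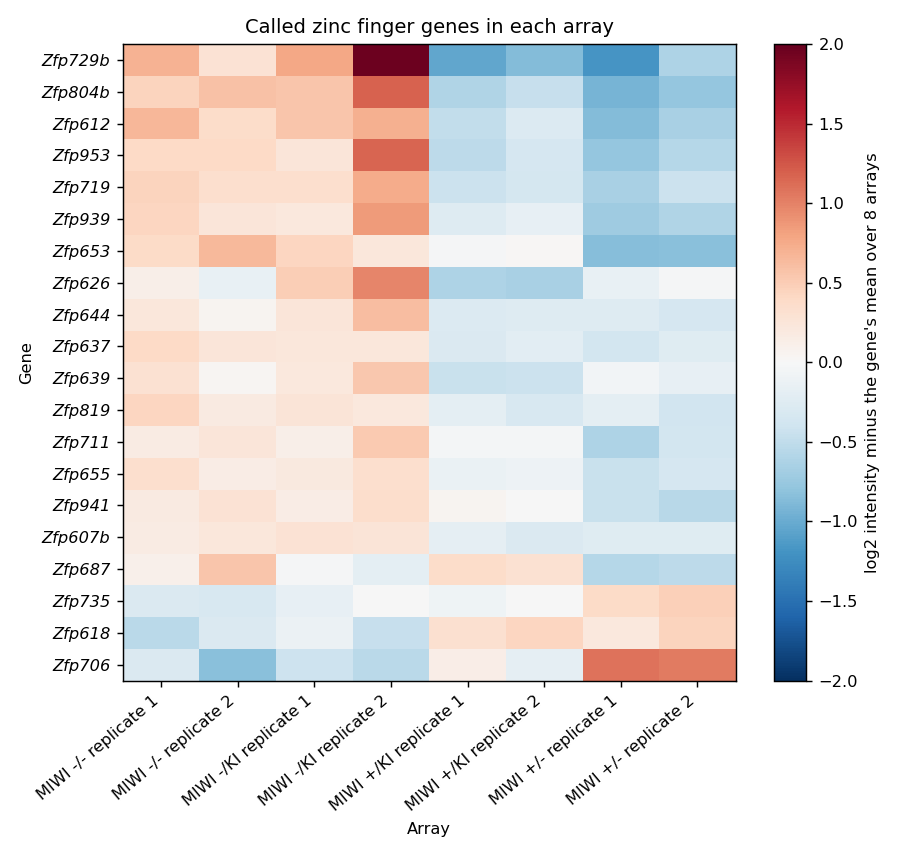
Log2 intensity of each zinc finger gene called in at least 1 comparison, minus its own mean over the 8 arrays, by array; red is above the gene's mean and blue below. The 4 arrays without a wild-type allele are mostly red for the genes that rose, MIWI -/KI replicate 2 is the deepest for Zfp729b, and Zfp653, Zfp687 and Zfp706 set MIWI +/- apart from the other genotypes.

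Zfp729b had the largest rise. Its log2 intensity was 6.48 and 6.08 in MIWI -/-, 6.57 and 7.75 in MIWI -/KI, 4.76 and 4.92 in MIWI +/KI, and 4.61 and 5.17 in MIWI +/-. All 4 arrays without a wild-type allele lay above all 4 with one, and MIWI -/KI replicate 2 was the highest. The arrays with a wild-type allele were dim, below the lower quartile of mean log2 intensity over all genes, 5.51. The signal was 3.62-fold higher without a wild-type allele (log2 fold change 1.86, SE 0.26, limma adjusted p = 0.00476). Leaving out MIWI -/KI replicate 2 gave 1.56 (limma adjusted p = 0.00413).

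Zfp804b is the closest named relative of Zfp804a, whose human counterpart lies in a schizophrenia risk locus. It lay at 5.81 and 5.94 in MIWI -/-, 5.91 and 6.54 in MIWI -/KI, 4.76 and 4.89 in MIWI +/KI, and 4.43 and 4.58 in MIWI +/-. Again no array overlapped, and MIWI +/KI lay just above MIWI +/-. The arrays of both these genotypes also lay below that lower quartile over all genes, 5.51. The rise was 2.61-fold (log2 fold change 1.39, SE 0.15, limma adjusted p = 0.00133). Zfp804a itself had means of 4.84 in MIWI -/-, 4.87 in MIWI -/KI, 4.83 in MIWI +/KI and 4.97 in MIWI +/-, a log2 fold change of -0.05 that was not called (limma adjusted p = 0.889).

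Zfp612 lay at 8.12 and 7.81 in MIWI -/-, 8.01 and 8.16 in MIWI -/KI, 6.96 and 7.18 in MIWI +/KI, and 6.58 and 6.80 in MIWI +/-. It rose 2.21-fold with little spread within any genotype (log2 fold change 1.14, SE 0.13, limma adjusted p = 0.00164). Zfp953 stood at 6.70 and 6.71 in MIWI -/-, 6.54 and 7.47 in MIWI -/KI, 5.78 and 5.98 in MIWI +/KI, and 5.53 and 5.73 in MIWI +/-. Its arrays did not overlap either, and the rise was 2.14-fold (1.10, SE 0.20, limma adjusted p = 0.0144), or 0.87 on the log2 scale without MIWI -/KI replicate 2 (limma adjusted p = 0.00501). The call of Zfp953 was lost in 5 of 17 alternatives, each of them leaving out 1 array. In Zfp719, whose promoter on chromosome 7 is shown above, the values were 9.17 and 9.06 in MIWI -/-, 9.06 and 9.46 in MIWI -/KI, 8.29 and 8.37 in MIWI +/KI, and 8.08 and 8.29 in MIWI +/-. The rise of 1.91-fold (0.93, SE 0.12, limma adjusted p = 0.00386) separated the arrays without a wild-type allele from those with one by more than the spread within any genotype.

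Zfp653 followed another order. It lay at 9.62 and 9.88 in MIWI -/-, 9.65 and 9.46 in MIWI -/KI, 9.20 and 9.26 in MIWI +/KI, and 8.38 and 8.39 in MIWI +/-. The MIWI +/KI arrays stood between the arrays without a wild-type allele and those of MIWI +/-. Without against with a wild-type allele it rose 1.80-fold (log2 fold change 0.85, SE 0.11, limma adjusted p = 0.00281). The difference of MIWI +/KI from MIWI +/- was 0.84 (SE 0.15), which was not called (limma adjusted p = 0.111).

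Zfp626 was called where both genotypes carry a knock-in allele and not in MIWI -/- against MIWI +/-. Its values were 8.94 and 8.66 in MIWI -/-, 9.32 and 9.79 in MIWI -/KI, 8.20 and 8.17 in MIWI +/KI, and 8.66 and 8.79 in MIWI +/-. MIWI -/- and MIWI +/- overlapped, whereas MIWI -/KI and MIWI +/KI lay far apart. The log2 fold change was 1.37 in MIWI -/KI against MIWI +/KI (SE 0.19, limma adjusted p = 0.0164) and 0.07 in MIWI -/- against MIWI +/- (limma adjusted p = 0.958). The test of the difference between them gave 1.30 with a limma adjusted p of 0.132, so it was not shown to differ.

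**Figure D2:**
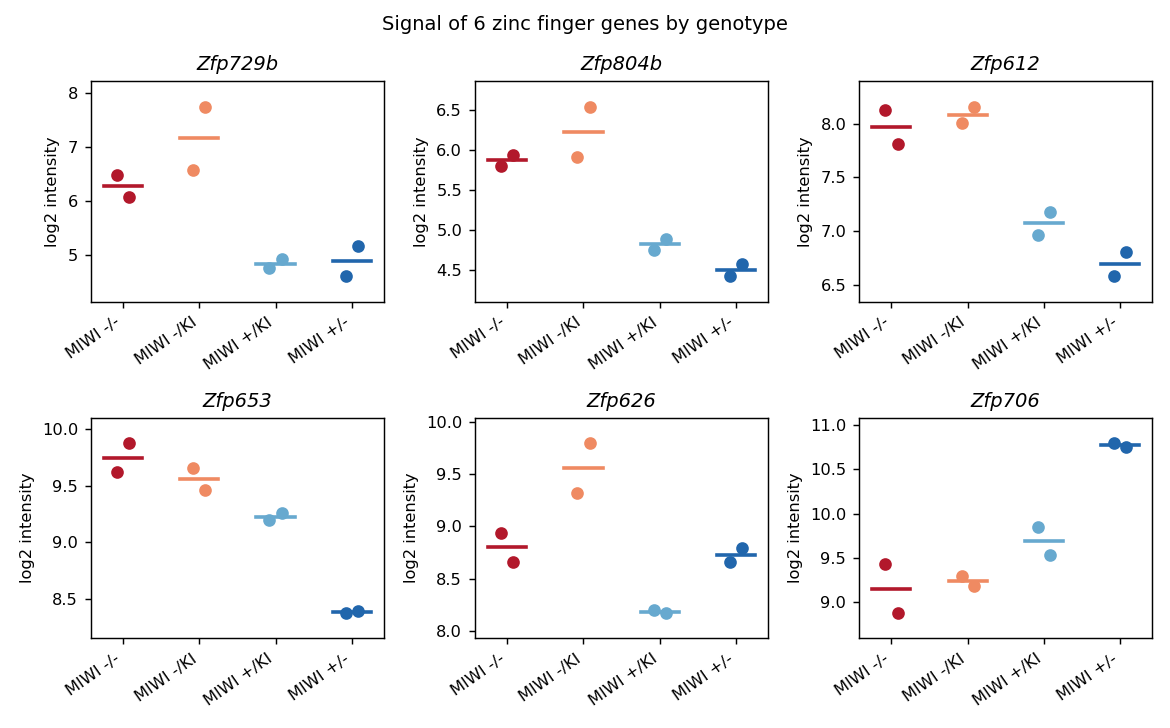
Log2 intensity (vertical axis) of 6 zinc finger genes by genotype, with 1 point per array and a line at the mean of the 2 arrays; each panel has its own vertical range. Zfp729b, Zfp804b and Zfp612 separate the genotypes without a wild-type allele from those with one, Zfp653 and Zfp706 put MIWI +/KI in between, and Zfp626 puts MIWI -/KI and MIWI +/KI at the extremes.

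Further called rises were those of Zfp939, Zfp637, Zfp655, Zfp607b and Zfp941. Zfp939 lay at 5.97 and 5.79 in MIWI -/-, 5.76 and 6.39 in MIWI -/KI, 5.29 and 5.38 in MIWI +/KI, and 4.83 and 4.95 in MIWI +/- (1.82-fold higher without a wild-type allele, limma adjusted p = 0.0125). Zfp637 lay at 6.67 and 6.52 in MIWI -/-, 6.50 and 6.50 in MIWI -/KI, 5.98 and 6.07 in MIWI +/KI, and 5.90 and 6.03 in MIWI +/- (1.47-fold, limma adjusted p = 0.0169). In both genes the 4 arrays without a wild-type allele lay above the other 4. The Zfp939 arrays with a wild-type allele were dim, below the lower quartile of mean log2 intensity over all genes, 5.51. Zfp655 (1.42-fold, limma adjusted p = 0.0328), Zfp607b (1.38-fold, limma adjusted p = 0.0331) and Zfp941 (1.40-fold, limma adjusted p = 0.0407) had arrays that did not overlap either.

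Of 5 members described here for a known link to retroelements, 1 was called, against 12.2% of all members and 8.26% of all genes. The 5 were chosen for their known role and are too few to give a rate. Zfp819, which in the mouse binds TRIM28 and represses endogenous retroviral sequences, lay at 8.22 and 7.96 in MIWI -/-, 8.04 and 8.0 in MIWI -/KI, 7.59 and 7.47 in MIWI +/KI, and 7.59 and 7.41 in MIWI +/-. Its 4 arrays without a wild-type allele lay above the others, 1.46-fold (log2 fold change 0.54, SE 0.12, limma adjusted p = 0.0306). Zfp809, which recognises the primer binding site of murine leukaemia viruses, lay at 7.39 and 7.25 in MIWI -/-, 7.21 and 7.56 in MIWI -/KI, 7.01 and 7.15 in MIWI +/KI, and 7.10 and 7.41 in MIWI +/-. These arrays overlapped and the difference of 0.19 (SE 0.13) was not called. Zfp708, which in the mouse binds RMER19B repeats, lay at 6.88 and 6.91 in MIWI -/-, 6.42 and 7.45 in MIWI -/KI, 6.46 and 6.61 in MIWI +/KI, and 5.75 and 6.11 in MIWI +/-. Its difference of 0.68 (SE 0.22) was not called (limma adjusted p = 0.128), with MIWI -/KI replicate 1 inside the range of MIWI +/KI and MIWI +/-. Zfp638, whose human counterpart silences unintegrated retroviral DNA together with HUSH, differed by 0.51 (SE 0.23, limma adjusted p = 0.298), and Zfp768, whose human counterpart binds MIR repeats, by 0.24 (SE 0.11, limma adjusted p = 0.297); neither was called.

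Among members described here for a chromatin complex or as a transcription factor, Zfp644 and Zfp639 rose and Zfp618 fell without a wild-type allele. Zfp711 and Zfp687 were not called there, and further uncalled members with a known role are given below. These genes were chosen for a known role and are too few to give a rate. Over all members 12.2% were called, and over all genes 8.26%. Zfp644, whose human counterpart works with the histone methyltransferases G9a and GLP, lay at 9.77 and 9.59 in MIWI -/-, 9.77 and 10.16 in MIWI -/KI, 9.26 and 9.27 in MIWI +/KI, and 9.28 and 9.19 in MIWI +/-. It rose 1.49-fold (log2 fold change 0.57, SE 0.12, limma adjusted p = 0.0249). Zfp618, a partner of UHRF2 and reader of 5-hydroxymethylcytosine, lay at 6.98 and 7.23 in MIWI -/-, 7.40 and 7.06 in MIWI -/KI, 7.84 and 7.94 in MIWI +/KI, and 7.73 and 7.95 in MIWI +/-. Its 4 arrays without a wild-type allele were the lowest, and it fell 1.63-fold (-0.70, SE 0.13, limma adjusted p = 0.0182). Zfp639, the counterpart of human ZASC1, a transcription factor, rose 1.46-fold (0.55, SE 0.12, limma adjusted p = 0.0393), a call lost in 8 of 17 alternatives, with 0.47 and a limma adjusted p of 0.0525 without MIWI -/KI replicate 2. Zfp711, a partner of the histone demethylase PHF8 in human cells, missed the threshold here (0.52, SE 0.13, limma adjusted p = 0.0553).

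Zfp706, which in mouse embryonic stem cells takes part in the exit from self-renewal, was read on the cluster with the largest fall. There it lay at 9.43 and 8.88 in MIWI -/-, 9.29 and 9.18 in MIWI -/KI, 9.85 and 9.53 in MIWI +/KI, and 10.79 and 10.75 in MIWI +/-. MIWI +/- stood apart from all other genotypes, with MIWI +/KI between. The fall was 2.05-fold (log2 fold change -1.04, SE 0.14, limma adjusted p = 0.00433). A second cluster listed as Zfp706 went the other way without passing the test: it lay at 7.40 and 7.39 in MIWI -/-, 7.55 and 7.39 in MIWI -/KI, 7.14 and 7.06 in MIWI +/KI, and 7.19 and 7.23 in MIWI +/- (0.28, limma adjusted p = 0.201). The mean of both clusters gave -0.38, which was not called, and the sources used here do not place the probes of either cluster, so the falling cluster may not measure the Zfp706 gene. The third fall was that of Zfp735, at 4.14 and 4.11 in MIWI -/-, 4.26 and 4.42 in MIWI -/KI, 4.33 and 4.42 in MIWI +/KI, and 4.81 and 4.90 in MIWI +/- (-0.39, SE 0.09, limma adjusted p = 0.0372). All arrays of Zfp735 were dim, below the lower quartile of mean log2 intensity over all genes, 5.51. The highest arrays of that gene were the MIWI +/- arrays, those of MIWI -/KI and MIWI +/KI overlapped, and the call was lost in 10 of 16 alternatives.

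In MIWI -/- against MIWI +/-, which asks what differs with only null alleles, 7 members rose and 2 fell, or 6.08%, against 6.13% of all genes called in either direction, 2.6% higher and 3.53% lower. The rises were Zfp804b (log2 fold change 1.37), Zfp653 (1.36), Zfp612 (1.28), Zfp939 (0.99), Zfp719 (0.93), Zfp687 (0.88) and Zfp941 (0.73), and the falls were those of the Zfp706 cluster used (-1.62, with 0.19 on its second cluster) and Zfp735 (-0.73). Zfp729b differed by 1.39 (SE 0.37) and was not called (limma adjusted p = 0.0844). Zfp687, whose human counterpart forms a chromatin complex with ZMYND8 and ZNF592, lay at 9.28 and 9.74 in MIWI -/-, 9.16 and 9.0 in MIWI -/KI, 9.55 and 9.49 in MIWI +/KI, and 8.61 and 8.66 in MIWI +/-. MIWI +/- was the low group for this gene, and MIWI +/KI lay within the range of MIWI -/-. The median log2 fold change of the members was 0.04, against 0.01 over all genes. The count of 9 was 3 without MIWI -/- replicate 2, 2 without MIWI +/- replicate 1, 3 without MIWI +/- replicate 2, 5 without either MIWI +/KI array and 18 without either MIWI -/KI array. Of all genes, 2.92%, 2.07%, 1.88%, 3.29% or 3.28%, and 10.2% were called in these settings.

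In MIWI -/KI against MIWI +/-, where the mutant has the knock-in in place of the wild-type allele, 10 members rose and 1 fell, or 7.43%, against 6.23% of all genes called in either direction, 3.11% higher and 3.12% lower. The largest rise was again Zfp729b (log2 fold change 2.27, SE 0.37, limma adjusted p = 0.0122), followed by Zfp804b (1.72), Zfp612 (1.39), Zfp953 (1.38), Zfp939 (1.19), Zfp653 (1.17), Zfp719 (1.08), Zfp711 (0.81), Zfp941 (0.75) and Zfp644 (0.73). The Zfp706 cluster used fell by 1.54 on the log2 scale, while its second cluster stood at 0.26 (limma adjusted p = 0.494). Zfp711 lay at 8.28 and 8.36 in MIWI -/-, 8.24 and 8.65 in MIWI -/KI, 8.09 and 8.09 in MIWI +/KI, and 7.50 and 7.76 in MIWI +/-, so that MIWI +/- was the low genotype. The members' median was 0.10, against -0.00444 over all genes. The calls of Zfp644, Zfp711 and Zfp941 were lost without MIWI -/KI replicate 2, where the count of 11 was 8. It was 30 without MIWI -/KI replicate 1, 7 without either MIWI +/KI array, 1 without MIWI +/- replicate 1 and 2 without MIWI +/- replicate 2. Of all genes, 4.64% were called without MIWI -/KI replicate 2 and 13.9%, 3.42% or 3.41%, 1.81% and 1.73% in the other settings. Both comparisons above share the MIWI +/- arrays.

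In MIWI -/KI against MIWI +/KI, where both genotypes carry a knock-in allele, 5 members rose and 0 fell, or 3.38%, against 2.43% of all genes called in either direction, 1.14% higher and 1.29% lower. They were Zfp729b (log2 fold change 2.32, SE 0.37), Zfp804b (1.40), Zfp626 (1.37), Zfp612 (1.01) and Zfp719 (0.93). An unadjusted p under 0.05 was reached by 30 members (20.3%) and by 17.9% of all genes. The members' median was 0.14, against -0.03 over all genes. The count of 5 was 36 without MIWI -/KI replicate 1, 3 without MIWI -/KI replicate 2, where Zfp612 and Zfp719 lost their calls, 0 without either MIWI +/KI array and 1 without either MIWI +/- array. The share of all genes called moved the same way, to 13.4%, 1.27%, 0.211% or 0.226%, and 0.983%.

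MIWI -/- against MIWI +/- and MIWI -/KI against MIWI +/KI share no array and can be set side by side. Across the 148 members the log2 fold changes of both correlated with r = 0.361 (Spearman's rho 0.215), and across all 19938 genes with r = 0.487 (rho 0.235). Genes are not independent replicates, and the points of a comparison share their 4 arrays. Both values were above 0 for 57 members and below 0 for 25, and they differed in sign for 66, so 55.4% had the same sign, against 56.9% of all genes. Zfp804b lay close to the diagonal, at 1.37 and 1.40, as did Zfp719, at 0.93 and 0.93, and Zfp612, at 1.28 and 1.01.

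**Figure D3:**
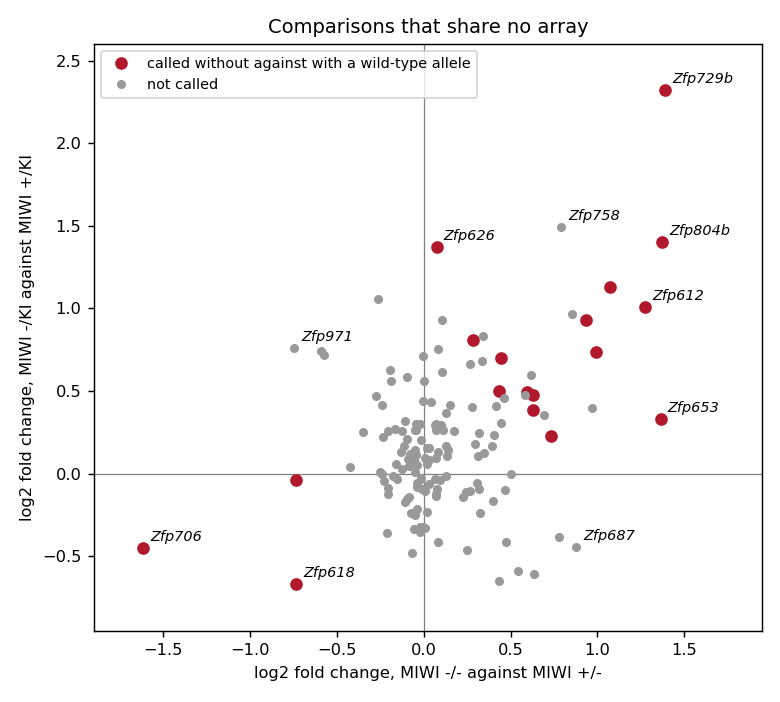
Log2 fold change of each of the 148 zinc finger genes in MIWI -/- against MIWI +/- (horizontal axis) and in MIWI -/KI against MIWI +/KI (vertical axis), which share no array; red points were called without against with a wild-type allele. Most genes cluster near 0, Zfp729b, Zfp804b and Zfp612 lie far out in the upper right, Zfp626 is high on the vertical axis alone, and Zfp706 lies far left.

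The difference between those differences, which tests whether losing the wild-type allele differs with the other allele, called 0 members in limma, as it called 0% of all genes. At an unadjusted p under 0.05 it held 16 members (10.8%), against 13% of all genes. Those with the smallest p, named after their values were seen, were Zfp646 (-1.13, limma adjusted p = 0.115), Zfp687 (-1.32, limma adjusted p = 0.115), Zfp653 (-1.04, limma adjusted p = 0.132) and Zfp626 (1.30, limma adjusted p = 0.132). Zfp646 lay at 9.95 and 10.29 in MIWI -/-, 9.63 and 9.70 in MIWI -/KI, 10.20 and 10.31 in MIWI +/KI, and 9.57 and 9.59 in MIWI +/-. MIWI -/- and MIWI +/KI were the high genotypes there, as for Zfp687. Zfp628, a protein that spermatid development in the mouse requires, was also named after its values were seen. It lay at 6.48 and 6.91 in MIWI -/-, 6.44 and 6.22 in MIWI -/KI, 7.08 and 6.88 in MIWI +/KI, and 6.31 and 6.21 in MIWI +/- (-1.08, limma adjusted p = 0.179). Without MIWI -/- replicate 1 the count of called members was 3.

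Between genotypes that differ in the allele beside the wild-type one, MIWI +/KI against MIWI +/-, limma called 0 members, against 0.0953% of all genes (0.0251% higher and 0.0702% lower), and 16 members (10.8%) had an unadjusted p under 0.05, against 11.7% of all genes. The adjusted count rose to 15 with array weights and to 12 with only these 4 arrays in the fit. Zfp653 (0.84), Zfp687 (0.88) and Zfp706 (-1.08) differed by amounts near those of the called genes, with limma adjusted p of 0.111, 0.138 and 0.117. Between the genotypes with no wild-type allele, MIWI -/KI against MIWI -/-, limma called 0 members and 0% of all genes, and 8 members (5.41%) had an unadjusted p under 0.05, against 4.55% of all genes. Zfp729b differed there by 0.88, with MIWI -/KI replicate 2 above the other 3 arrays, and Zfp719 by 0.14.

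Values by array show how much of the members' shift lay in MIWI -/KI replicate 2. This array was the highest of the 8 for 72 of the 148 members (48.6%), against 21.7% of all genes. It was the lowest for 16.9% of the members and 34.9% of all genes. Relative to each gene's own mean over the arrays, the median in that array was 0.21 for the members and -0.08 for all genes. In the other arrays without a wild-type allele the members' medians were 0.08 in MIWI -/- replicate 1, -0.01 in MIWI -/- replicate 2 and -0.01 in MIWI -/KI replicate 1. In the arrays with one they were -0.09 and -0.04 in MIWI +/KI, and -0.06 and -0.04 in MIWI +/-. Without MIWI -/KI replicate 2, the median log2 fold change without against with a wild-type allele was 0.05 over the members and 0.02 over all genes, and 15 members rose and 3 fell, against 8.58% of all genes called. Deviations of the members from their means correlated with r = 0.796 between the MIWI +/- arrays and 0.751 between the MIWI +/KI arrays, but 0.128 between the MIWI -/- arrays and -0.01 between the MIWI -/KI arrays (n = 148 genes, which share the mean over the 8 arrays). Over all genes the same 4 values were 0.766, 0.744, 0.317 and 0.123.

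**Figure D4:**
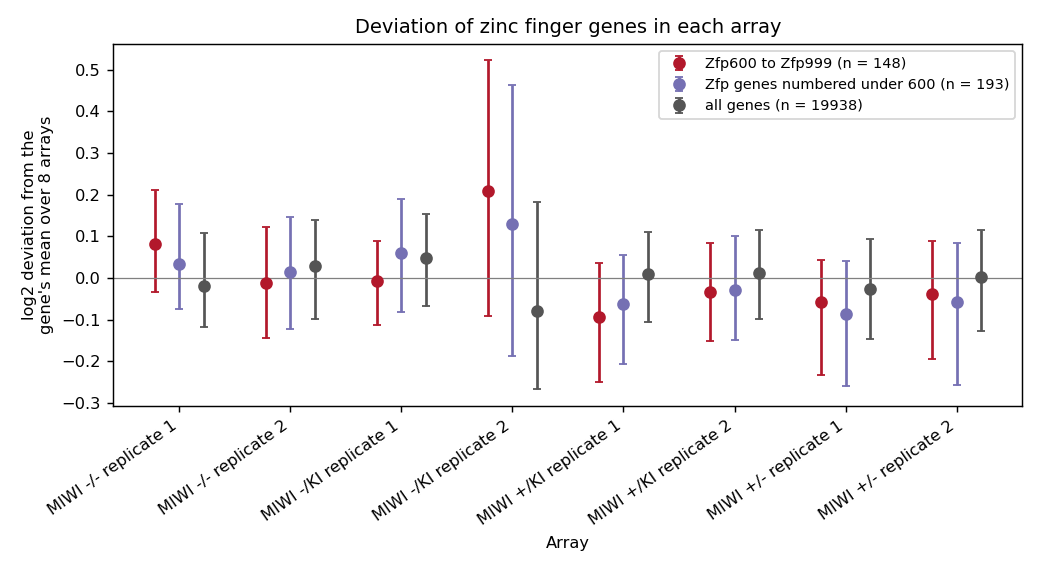
Median log2 deviation from each gene's mean over 8 arrays, by array, for the 148 zinc finger genes numbered 600 to 999, the 193 Zfp genes with a lower number and all 19938 genes; bars span the quartiles. The zinc finger genes stand highest in MIWI -/KI replicate 2, where the median of all genes is lowest, and below 0 in the 4 arrays with a wild-type allele. For the 148 genes the medians in MIWI -/- replicate 2 and MIWI -/KI replicate 1 are also just below 0, at -0.01 each.

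Markers of cell types moved between the same arrays. Of 12 round spermatid markers, 6 fell and 0 rose without a wild-type allele (median log2 fold change -0.55), and their summed intensity was 14938 to 15441 in MIWI -/-, 16449 to 18553 in MIWI -/KI, 27382 to 28735 in MIWI +/KI, and 34086 to 37044 in MIWI +/-. Those that fell were Tnp1, Tnp2, Prm1, Prm2, Tssk2 and Spata18, while Acrv1, Spaca1, Acr, Tssk1, Catsper3 and Catsper4 were not called. In MIWI -/- against MIWI +/- alone, 6 of the 12 fell and Acr rose (0.77, limma adjusted p = 0.0208). Of 18 spermatocyte markers, 1 rose and 1 fell without a wild-type allele (median 0.18). Their sums were 12491 to 14058 in MIWI -/-, 12642 to 14874 in MIWI -/KI, 12178 to 12271 in MIWI +/KI, and 11957 to 12954 in MIWI +/-. Their median deviation was highest in MIWI -/KI replicate 2, at 0.46, the array in which the zinc finger genes were highest. Of 13 Sertoli cell markers, 4 fell (median -0.56), with sums of 1506 to 1957 in MIWI -/-, 1527 to 1844 in MIWI -/KI, 2104 to 2556 in MIWI +/KI, and 2663 to 2780 in MIWI +/-. Of 6 Leydig cell markers 0 were called (median 0.60), with sums of 449 to 1022 in MIWI -/-, 726 to 746 in MIWI -/KI, 343 to 475 in MIWI +/KI, and 397 to 514 in MIWI +/-. Of 10 spermatogonial markers 1 rose, of 7 peritubular and vascular markers 1 rose, and of 7 blood and macrophage markers 2 fell. No marker intensity was 0 in any array. The part of these differences in the zinc finger results was not tested.

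Zinc finger genes often lie side by side. With no other protein-coding gene between them, 31 members formed 9 runs of at least 3, and others formed 13 pairs. The remaining 91 neighboured no other member. Runs were counted among members only, and a lower-numbered Zfp gene ended a run like any other gene. Members that neighbour only such Zfp genes are therefore among the 91. Of the 18 called genes 3 were in runs, which held 31 of the 148 members. Over all members 12.2% were called, and over all genes 8.26%. In the run Zfp658, Zfp719 and Zfp819 the adjacent Zfp719 and Zfp819, whose promoters are printed above, rose by 0.93 and 0.54, whereas Zfp658 differed by 0.06 (limma adjusted p = 0.848). In the run Zfp748, Zfp729b, Zfp729a and Zfp738, Zfp729b rose by 1.86, and the others differed by 0.07, 0.36 and 0.19, none of them called. The value of Zfp738 is that of its brightest cluster. Its further clusters differed by 0.53 and 0.55, also without a call (limma adjusted p = 0.547 and 0.429). Zfp758, at 1.14 (SE 0.32, limma adjusted p = 0.0811), stood between Zfp944 (0.03) and Zfp946 (0.01). All 4 genes of the run Zfp871, Zfp811, Zfp799 and Zfp870 lay between -0.05 and 0.03. Neighbours of a run can be near-identical in sequence, and cross-hybridisation between their probes was not examined.

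**Figure D5:**
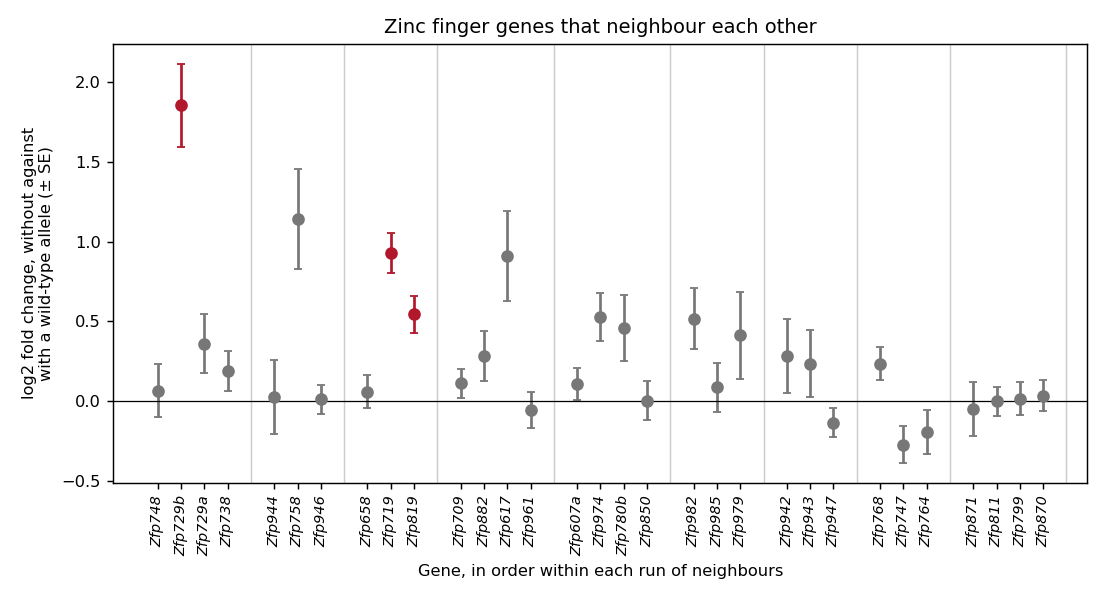
Log2 fold change without against with a wild-type allele (vertical axis, with limma's SE) of the 31 zinc finger genes in 9 runs of neighbours, separated by grey lines; red points were called. Each gene is shown on the cluster used. Zfp729b is the only called gene of its run, Zfp719 and Zfp819 rise side by side, and the run of Zfp871 stays near 0.

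A further 4 members with a known role, Zfp703, Zfp746, Zfp750 and Zfp827, were not called without against with a wild-type allele. Zfp703, whose human counterpart is amplified in breast cancer, differed by -0.11 (SE 0.14). Zfp746, the Parkin substrate PARIS, differed by 0.03 (SE 0.14), and Zfp750, a regulator of epidermal differentiation, by -0.15 (SE 0.14). Zfp827, whose human counterpart acts at telomeres that are kept without telomerase, differed by -0.11 (SE 0.11). The arrays of all 4 genes overlapped between genotypes with and without a wild-type allele.

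The cofactors through which KRAB zinc finger proteins act were read beside them. Of 27 measured genes of 30 listed for TRIM28, SETDB1, heterochromatin proteins and DNA methylation, 1 rose and 0 fell without against with a wild-type allele, with a median log2 fold change of 0.15, against -0.01 over all genes. It was Cbx5, which encodes the heterochromatin protein HP1 alpha, at 8.95 and 9.02 in MIWI -/-, 9.14 and 9.44 in MIWI -/KI, 8.45 and 8.57 in MIWI +/KI, and 7.80 and 7.95 in MIWI +/- (0.94, SE 0.11, limma adjusted p = 0.00233). In MIWI -/- against MIWI +/-, 3 of the 27 rose: Cbx5 (1.11), Trim28 itself (0.78, SE 0.17, limma adjusted p = 0.0377) and Atf7ip (0.76), a partner of SETDB1. Trim28 lay at 10.67 and 11.11 in MIWI -/-, 10.49 and 10.29 in MIWI -/KI, 10.77 and 10.72 in MIWI +/KI, and 10.18 and 10.03 in MIWI +/-, so that MIWI +/KI lay within the range of MIWI -/-. In MIWI -/KI against MIWI +/- 1 of the 27 rose, and against MIWI +/KI 0 did. Of the HUSH complex, which silences retroelements with SETDB1, 3 of 4 genes were measured, and Pphln1, which encodes periphilin, rose without a wild-type allele (0.87, SE 0.11, limma adjusted p = 0.00314).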

How the data were processed

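The authors' deposited values are linear intensities, 1 per transcript cluster and array, made with RMA per the submitters' processing notes, whose version these notes do not name; log2 of each deposited intensity was taken. Total RNA of 8 arrays, 2 per genotype, was labelled with biotin, per the labels. Where a cell exceeded its row's median over the other arrays by more than 100 times, as in 8 cells, it was treated as missing, with 0 such cells in the members' clusters. Groups came from the titles.

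The members, gene lists and tests were chosen with earlier results of these data known. Genes came from the platform annotation, and 147 of 148 members were found by Entrez ID in the RefSeq gene table for GRCm38.p6, used for names and neighbours. Each gene was read on its cluster with the highest mean.

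limma 3.58.1 in R 4.3.3 fitted 1 mean per genotype to the log2 intensities of all 35512 clusters, with variances moderated along intensity (degrees of freedom: 4 residual, 3.976 prior). The two-sided p-values were adjusted by Benjamini-Hochberg for all clusters, and those under 0.05 were called. Shares of all genes refer to the 19938 genes on 1 cluster each. SE is limma's moderated standard error.

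Named were the 12 largest called changes without against with a wild-type allele, up to 8 rises and falls in each of 3 further comparisons, the 6 brightest and 3 dimmest clusters, the 4 of largest spread, up to 15 members with a known role, and runs of at least 3 neighbours. Zfp655, Zfp607b, Zfp628 and Zfp804a were named after their values were seen. Planned counts of zinc fingers and KRAB domains were not made, since no protein sequences were used here. Alternatives changed the normalization, log offset of 16, filter, gene summary, variance model, arrays in the fit and replicate block, and left out each array. The scripts were tested on simulated data.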

Additional observations from a re-analysis of the deposited data

How the results depend on the processing

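Over 43 gene results and 744 alternatives, 543 kept their call, 201 lost it and 0 reversed; 8 results kept it in all alternatives run. The count of called members was 9 in MIWI -/- against MIWI +/- and was 16 with array weights and 2 to 18 when 1 array was left out. In MIWI -/KI against MIWI +/- it was 11, and 4 with only the groups compared and 1 to 30 leaving out 1 array. In MIWI -/KI against MIWI +/KI it was 5, and 3 with array weights, 0 with only the groups compared and 0 to 36 leaving out 1 array. In MIWI +/KI against MIWI +/- it was 0, and 1 with dim clusters left out, 15 with array weights, 12 with only the groups compared and 0 to 0 leaving out 1 array. Without against with a wild-type allele, 18 were called, 14 to 19 under the other alternatives and 6 to 36 leaving out 1 array. The difference of differences called 0, and 2 with dim clusters left out and 0 to 3 leaving out 1 array. MIWI -/KI against MIWI -/- called 0 in all alternatives run. With the replicate block the counts were 8 in MIWI -/- and 10 in MIWI -/KI, each against MIWI +/-. This block gave 3 in MIWI -/KI against MIWI +/KI and 0 in the comparisons that called none. For the mean effect of lacking a wild-type allele it gave 14. The labels do not say whether same-numbered arrays were prepared together. Differences of replicate 1 minus replicate 2 correlated with r between -0.258 and 0.297 over pairs of genotypes. These values cannot decide whether the numbers pair samples, since each genotype gives only 1 such difference. The cause of the changes in the counts of called members was not tested, beyond fewer arrays or clusters entering the fit. With 1 array left in a genotype, that array was assumed to vary like the others. Array weights were equal for both arrays of a genotype, 0.344 in MIWI -/KI and 2.74 in MIWI +/KI. They therefore do not correct for MIWI -/KI replicate 2 alone. The 2 arrays per genotype limit the precision of all values.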

Other observations

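Of the 193 Zfp genes numbered under 600, 21 (10.9%) rose and 0 fell in the genotypes lacking a wild-type allele. Of the members 10.1% rose, and of all genes 4.33%. The arrays lay higher without overlap for 18.1% of the lower-numbered genes and 15.5% of the members. The share that rose was thus not particular to the numbers 600 to 999. The median log2 fold change of the lower-numbered genes was 0.08. The largest rises were Zfp334 (1.78, SE 0.11, limma adjusted p = 8.07e-05), Zfp184 (1.75), Zfp389 (1.57), Zfp113 (1.34) and Zfp397 (1.13). MIWI -/KI replicate 2 was the highest array for 37.3% of these genes.

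A further 35 clusters list several genes, at least 1 of them numbered 600 to 999, and were no members; 0 of them rose and 0 fell, with a median of 0.20. Zfp788 has 2 clusters with identical values in all arrays. Zfp640 and Zfp825, which have further clusters, lay high in MIWI -/- replicate 1 (6.11 and 6.90), MIWI -/KI replicate 2 (6.64 and 7.70) and both MIWI +/- arrays, and low in the other 4 arrays.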
